A study of Mus musculus with 12 samples.

Results

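The solute carriers that move dietary peptides and amino acids across the enterocyte were examined in EpCAM+ epithelial cells of the mouse small intestine collected 24 h after stroke. The members were chosen by name as 8 genes, namely Slc15a1, Slc6a19, Slc7a9, Slc3a1 and Slc1a1 for the apical side and Slc7a7, Slc7a8 and Slc3a2 for the basolateral side. All 8 were among the 15855 genes of the count table, and all 8 were among the 14462 genes that passed the filter on low counts. Mice of the C57BL6/J strain, male unless stated otherwise and 8 to 12 weeks old, underwent sham surgery (n = 7) or permanent middle cerebral artery occlusion (pMCAO, n = 5), in which a filament closes a large brain artery and stays in place. Not every pMCAO sample that the study describes for this experiment was analysed here. Both groups received ketamine and xylazine anaesthesia, no group carried a genetic change, and no unoperated mice were included. Cells came from the whole small intestine, so the duodenum, jejunum and ileum, along which these carriers are unevenly spread, were mixed in each sample. Each sample was labelled as a separate biological replicate, although the labels do not say that each came from a separate animal. The p-values therefore measure the spread between these samples.

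Protein digestion in the gut lumen releases short peptides and free amino acids, and the brush border of the enterocyte takes up both. Peptides enter together with protons through Slc15a1, whereas most neutral amino acids enter together with sodium through Slc6a19, the carrier lost in Hartnup disorder. The apical exchanger of cystine and dibasic amino acids is built from the light chain Slc7a9 and the heavy chain Slc3a1, which are the genes mutated in cystinuria, and Slc1a1 takes up glutamate and aspartate. On the blood side Slc3a2 is the shared heavy chain of Slc7a7, which releases dibasic amino acids and is mutated in lysinuric protein intolerance, and of Slc7a8, an exchanger of neutral amino acids.

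In the GRCm38 build with the GENCODE annotation, the apical members lay at chr14:121459621-121505252 on the minus strand (Slc15a1), chr13:73679745-73704865 on the minus strand (Slc6a19), chr7:35448796-35466036 on the plus strand (Slc7a9), chr17:85028376-85064236 on the plus strand (Slc3a1) and chr19:28835049-28913960 on the plus strand (Slc1a1). The basolateral members lay at chr14:54369442-54417780 (Slc7a7), chr14:54722209-54781946 (Slc7a8) and chr19:8706882-8723369 (Slc3a2), each on the minus strand. Exons of Slc3a1, Slc7a7 and Slc1a1 overlapped exons of Prepl, Oxa1l and 4430402I18Rik on the opposite strand. Because it was not stated whether the counting used strand, reads of these 3 members and of their antisense neighbours cannot be told apart where the exons overlap.

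The sequences before the start sites of the 4 apical members that moved together between library blocks, and of Slc7a8, which moved the other way, are shown so that their motifs can be compared. They were taken from RefSeq (GRCm38.p6) within 250 bases before the annotated start, leaving out bases that GENCODE places in an exon, and read 5′ to 3′ on the strand of the gene. The windows lay at chr17:85028097-85028346 (plus, Slc3a1), chr7:35448842-35449036 (plus, Slc7a9), chr14:121505255-121505504 (minus, Slc15a1), chr13:73692637-73692886 (minus, Slc6a19) and chr14:54781947-54782136 (minus, Slc7a8). The Slc6a19 and Slc7a9 windows lie within the spans of the GENCODE genes, since RefSeq places these starts farther downstream. Capitals mark matches to the motifs named after the sequences.
Slc3a1: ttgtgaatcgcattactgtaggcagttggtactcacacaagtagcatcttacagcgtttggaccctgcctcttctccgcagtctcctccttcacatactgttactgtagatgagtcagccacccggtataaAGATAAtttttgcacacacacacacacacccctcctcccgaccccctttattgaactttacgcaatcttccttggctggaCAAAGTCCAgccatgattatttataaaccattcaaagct
Slc7a9: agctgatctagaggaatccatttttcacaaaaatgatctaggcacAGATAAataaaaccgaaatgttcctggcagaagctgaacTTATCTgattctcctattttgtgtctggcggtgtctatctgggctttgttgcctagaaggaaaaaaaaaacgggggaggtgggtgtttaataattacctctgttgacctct
Slc15a1: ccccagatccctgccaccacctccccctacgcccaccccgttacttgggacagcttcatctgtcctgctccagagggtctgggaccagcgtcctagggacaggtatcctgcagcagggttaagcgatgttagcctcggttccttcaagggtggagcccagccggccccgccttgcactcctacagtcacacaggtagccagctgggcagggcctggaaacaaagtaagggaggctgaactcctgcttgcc
Slc6a19: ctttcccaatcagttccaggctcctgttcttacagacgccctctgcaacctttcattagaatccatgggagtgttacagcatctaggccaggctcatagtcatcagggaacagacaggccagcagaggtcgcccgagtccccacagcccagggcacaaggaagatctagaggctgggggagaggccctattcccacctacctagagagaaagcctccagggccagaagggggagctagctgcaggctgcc
Slc7a8: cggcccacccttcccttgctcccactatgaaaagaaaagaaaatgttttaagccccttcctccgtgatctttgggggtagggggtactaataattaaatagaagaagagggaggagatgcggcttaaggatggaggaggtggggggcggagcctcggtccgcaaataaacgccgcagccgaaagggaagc
5 motifs of intestinal and amino acid-responsive factors, chosen after these sequences had been seen, were searched on both strands of the full 250 bases of all 32851 RefSeq windows. The letters CAAAGTCCA, a motif of HNF4, were present in 0.384% of windows. The motif of HNF1, searched as GTTAAT, was present in 6.43%, and that of CDX2, searched as TTTATG, in 10.8%. The motif of GATA factors, searched as AGATAA, was present in 9.99%, and that of ATF4, searched as TGATGNAA, in 3.45%. Slc3a1 held the HNF4 letters beginning 39 bases before its start and the GATA letters beginning 119 bases before it. Slc7a9 held GATA letters on both strands, beginning 205 and 166 bases before the start whose window is printed. The window of another annotated Slc7a9 start, farther downstream (chr7:35448929-35449036) and not printed, held no match. No match lay in the windows of Slc15a1, Slc6a19 or Slc7a8, and no 2 matches overlapped in the printed sequences. Slc7a7, whose windows are not printed, held GATA, ATF4 and HNF1 letters before its annotated starts. Its level did not pass the adjusted p between library blocks. A match is a description of the letters and not evidence of binding.

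Sequencing depth ranged from 7418730 to 31925579 counts per sample. The 4 samples with the lowest library numbers in their titles (58 to 61, 3 sham and 1 pMCAO) stood apart from the 8 later ones, with 13386 to 14712 against 15343 to 15766 genes detected and 34.8% to 54.5% against 14.6% to 35.2% of counts on mitochondrial ribosomal RNA. Consecutive library numbers fell into 4 blocks, of which libraries 58 to 61 were the first, libraries 62 to 65 the second (2 sham and 2 pMCAO), libraries 66 to 68 the third (1 sham and 2 pMCAO) and library 72 the fourth (1 sham). The 6 epithelial markers, among them the sorted surface protein Epcam, summed to between 3386 and 6999 CPM (counts scaled to a common library size) in every sample, against 51.5 to 308.7 CPM for 6 immune markers, of which the lymphocyte genes Cd3e and Cd79a were at 0 in at least 1 sample. Ptprc (15.2 to 121.4 CPM) and Cd74 (13.7 to 174.4 CPM) were above 0 in every sample. So were Cd8a (1.2 to 33.4 CPM) and Lyz2 (2.7 to 25.1 CPM).

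The apical carriers of peptides and neutral amino acids were the most abundant members and the glutamate carrier the least. Levels were compared per kilobase of exon, on TMM-scaled CPM, and the median over the 12 samples was 94.96 CPM per kb for Slc6a19, 83.3 for Slc15a1, 59.7 for Slc7a9, 43.4 for Slc3a1, 17.2 for Slc7a7, 15.2 for Slc3a2, 13.6 for Slc7a8 and 0.467 for Slc1a1. Slc15a1 exceeded Slc7a9, Slc3a1 exceeded Slc7a7, and Slc7a8 exceeded Slc1a1 in 12 of 12 samples each. Slc7a9 exceeded Slc3a1 in 10 of 12 samples. The order of Slc6a19 and Slc15a1 held in 8 of 12 samples only, and those of Slc7a7 with Slc3a2 and of Slc3a2 with Slc7a8 held in 6 of 12, so these neighbours were not separated by their spread. Slc1a1 had 0 counts in sham replicate 2, where 3 counts correspond to 0.622 CPM.

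**Figure D1:**
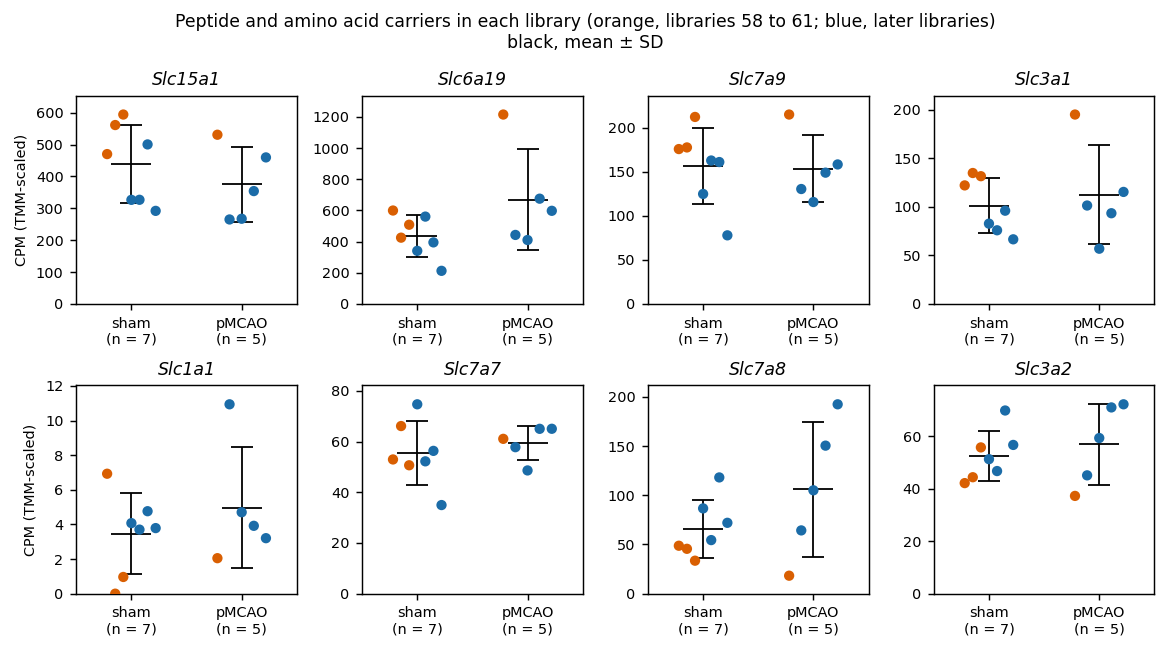
TMM-scaled CPM of the 8 carriers in each sample (y axis, linear, starting at 0) for sham and pMCAO, with each point a sample, orange for libraries 58 to 61 and blue for the 8 later ones, and black lines for mean ± SD. The groups overlap for each carrier, whereas the orange points lie at the top for Slc7a9 and Slc3a1 and at the bottom for Slc7a8.

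Whether stroke changed the transcripts of these carriers was asked by comparing pMCAO with sham in all 12 samples. None of the 8 members was called differentially expressed (adjusted p of at most 0.05 and at least 1 log2 unit, limma-voom), and the CPM ranges of the groups overlapped for 8 of 8, beside 0.505% of all genes without overlap. The background was the same, since 0% of the 14462 genes were called. At an unadjusted p under 0.05, 1219 genes (8.43%) and 0 of 8 members passed, and across all genes edgeR called 0 genes, with 930 at an unadjusted p under 0.05, and DESeq2 called 68. The members had a median log2 fold change of 0.13, beside 0.060 over all genes, and 7 of 8 estimates were above 0, beside 55.2% of all genes. In these bulk samples fewer cells of a type and less RNA per cell cannot be told apart.

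Slc6a19, the main sodium-coupled entry route for neutral amino acids, had the lowest p of the 8 members. Its level was 599.3, 425.1, 508.2, 340.5, 560.3, 394.7 and 212.3 CPM in sham replicates 1 to 7. In pMCAO replicates 1 to 5 it was 1215, 442.6, 410.0, 675.2 and 597.4 CPM. The highest pMCAO value, from library 58, and 1 other pMCAO value exceeded every sham sample, whereas the other 3 lay within the sham range. The log2 fold change was 0.62 ± 0.30 (SE, 95% interval -0.015 to 1.25, adjusted p = 0.602, limma-voom). Within the blocks the difference in mean log2 CPM was 1.26 in libraries 58 to 61, -0.036 in libraries 62 to 65 and 0.69 in libraries 66 to 68. With the block in the fit the log2 fold change was 0.56 ± 0.20 (95% interval 0.13 to 0.98, unadjusted p = 0.0129, adjusted p = 0.246, limma-voom), and without the 4 libraries 58 to 61 it was 0.58 (adjusted p = 0.669). Leaving out pMCAO replicate 1 alone lowered it to 0.36 (adjusted p = 0.540).

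Slc15a1, the peptide carrier, gave the only negative estimate. Its level was 470.2, 561.3, 594.3, 326.6, 326.7, 500.5 and 292.0 CPM in sham replicates 1 to 7, and 530.9, 265.0, 267.3, 354.1 and 459.7 CPM in pMCAO replicates 1 to 5. The 2 lowest values were from pMCAO samples, and the 2 highest were from sham samples of libraries 58 to 61. The log2 fold change was -0.21 ± 0.25 (95% interval -0.73 to 0.31, adjusted p = 0.824, limma-voom). It was -0.21 ± 0.13 with the block (adjusted p = 0.515) and -0.082 without libraries 58 to 61 (adjusted p = 0.947). The within-block differences of -0.023, -0.30 and -0.31 had the same sign, as did those of 30.3% of all genes. Scaling to total counts alone turned the estimate to 0.062.

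The ratio of the 2 carriers does not depend on how the libraries were scaled, and it was described without a test. The log2 ratio of Slc6a19 to Slc15a1 was -0.034 ± 0.46 in 7 sham samples and 0.77 ± 0.31 in 5 pMCAO samples (mean ± SD). The ranges overlapped, since the highest sham value was 0.78 and the lowest pMCAO value 0.38. In the 8 later samples it was 0.0090 ± 0.56 in 4 sham and 0.67 ± 0.23 in 4 pMCAO samples.

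The chains of the cystine exchanger were at similar levels in both groups. The light chain Slc7a9 was at 175.9, 177.7, 212.3, 124.9, 162.9, 161.1 and 77.9 CPM in sham replicates 1 to 7, and at 215.1, 130.5, 115.7, 149.1 and 158.4 CPM in pMCAO replicates 1 to 5. The heavy chain Slc3a1 was at 122.0, 134.8, 131.5, 82.6, 75.8, 96.0 and 66.5 CPM in sham and at 195.0, 101.3, 56.8, 93.4 and 115.3 CPM in pMCAO. For both chains the highest sample was pMCAO replicate 1, and the lowest was sham replicate 7 for Slc7a9 and pMCAO replicate 3 for Slc3a1. The log2 fold change was 0.024 for Slc7a9 (95% interval -0.48 to 0.53, adjusted p = 0.983) and 0.12 for Slc3a1 (95% interval -0.46 to 0.69, adjusted p = 0.927, limma-voom). The sign of the first turned to -0.057 with the block, and that of the second to -0.11 without pMCAO replicate 1. The log2 ratio of Slc7a9 to Slc3a1 was 0.61 ± 0.28 in 7 sham samples and 0.53 ± 0.34 in 5 pMCAO samples (mean ± SD).

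Among the basolateral members Slc7a8, the neutral amino acid exchanger, spread the most between samples. It was at 48.7, 45.6, 33.5, 86.7, 54.5, 118.2 and 72.1 CPM in sham replicates 1 to 7, and at 18.3, 64.3, 105.1, 150.5 and 192.5 CPM in pMCAO replicates 1 to 5. The lowest sample of all and the 2 highest were pMCAO samples, so the sham range lay inside the pMCAO range. The log2 fold change was 0.37 (95% interval -0.64 to 1.37, adjusted p = 0.850, limma-voom), 0.11 with the block and 0.91 without pMCAO replicate 1 (adjusted p = 0.256).

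The other basolateral members and the glutamate carrier showed narrower or sparser values. Slc7a7 was at 35.0 to 74.7 CPM in sham (median 53.0) and 48.6 to 65.1 CPM in pMCAO (median 61.1), with a log2 fold change of 0.15 (95% interval -0.25 to 0.55). The heavy chain Slc3a2 was at 42.1 to 69.8 CPM in sham (median 51.3) and 37.3 to 72.2 CPM in pMCAO (median 59.3), with a log2 fold change of 0.089 (95% interval -0.34 to 0.52). Slc1a1 was at 6.9, 0.0, 1.0, 4.1, 3.7, 4.8 and 3.8 CPM in sham and 2.1, 10.9, 4.7, 3.9 and 3.2 CPM in pMCAO. Its log2 fold change of 0.62 had a 95% interval from -0.71 to 1.96, and it was 0.16 without pMCAO replicate 2, the highest sample, and 0.25 without sham replicate 2. Adjusted p was 0.850 for Slc7a7, 0.926 for Slc3a2 and 0.798 for Slc1a1 (limma-voom).

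**Figure D2:**
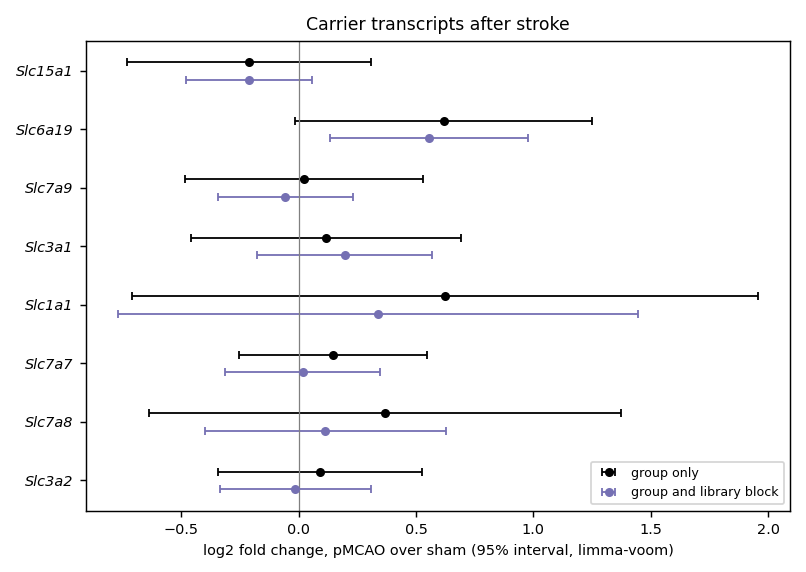
Log2 fold change of pMCAO over sham for the 8 carriers (x axis) with 95% intervals from limma-voom, in black with the group alone and in purple with the library block in the fit. The interval crosses 0 for 8 of 8 carriers in the first fit, and in the second only that of Slc6a19 (0.13 to 0.98) does not.

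With the block in the fit, 0 of 8 members were called, beside 0.325% of all genes (47 genes). By adjusted p alone 0 of 8 passed, beside 0.477% of all genes. By unadjusted p 1 of 8 passed, which was Slc6a19 (higher), beside 12.7% of all genes in either direction and 6.58% as higher. The summed level of 7 enterocyte markers was 11723 to 18996 CPM in sham and 14122 to 38951 CPM in pMCAO, where the highest value was from pMCAO replicate 1 and the other 4 samples reached 19832 CPM. The ranges also overlapped for 4 proximal markers (277.9 to 1533 CPM in sham and 668.8 to 1400 CPM in pMCAO) and for 4 ileal markers (73.6 to 235.5 CPM and 136.3 to 268.5 CPM). With the block in the fit, 3 of 7 enterocyte markers passed the unadjusted p as higher, beside 6.58% of all genes, and 0 as lower. Of these Sis, the brush border sucrase-isomaltase (0.74 ± 0.14, adjusted p = 0.0337, limma-voom), also passed the adjusted p, beside 0.477% of all genes. By unadjusted p 1 of 4 proximal markers passed as lower and 1 of 4 ileal markers as higher. The part of these markers in the carrier levels was not tested.

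Larger differences lay between library blocks. With the group as a covariate, 4 apical carriers were higher in libraries 58 to 61 than in the 8 later ones and Slc7a8 was lower, at an adjusted p of at most 0.05 in limma-voom. The share of members that passed was 5 of 8, beside 19.1% of all genes, with 4 of 8 passing as higher, beside 9.86%, and 1 of 8 as lower, beside 9.2%. Slc7a8 alone also passed the fold threshold, beside 11.7% of all genes, of which 8.39% were lower and 3.28% higher. What set libraries 58 to 61 apart from the later ones was not given in the sources used here.

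Slc3a1 differed by a log2 fold change of 0.85 ± 0.20 (adjusted p = 0.00671), and its 122.0 to 195.0 CPM in libraries 58 to 61 did not overlap the 56.8 to 115.3 CPM of the later ones. Slc7a9 differed by 0.58 ± 0.19 (adjusted p = 0.0393), again without overlap (175.9 to 215.1 against 77.9 to 162.9 CPM). Slc15a1 differed by 0.63 ± 0.18 (adjusted p = 0.0213) and Slc6a19 by 0.74 ± 0.23 (adjusted p = 0.0307), both with overlapping ranges. Slc7a8 differed by -1.53 ± 0.39 (adjusted p = 0.0116) with 18.3 to 48.7 CPM in libraries 58 to 61 and 54.5 to 192.5 CPM in the later ones, which did not overlap. The 3 members without overlap stand beside 14.9% of all genes.

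Slc3a2 (log2 fold change -0.44, adjusted p = 0.142), Slc7a7 (0.091, adjusted p = 0.783) and Slc1a1 (-1.51, adjusted p = 0.248) did not pass. The median over all genes was -0.15 in this comparison, beside 0.34 over the 8 members. Without pMCAO replicate 1, the only pMCAO sample of libraries 58 to 61, 0 of 8 members passed the adjusted p, and Slc7a8 stood at -0.89 (adjusted p = 0.200) and Slc3a1 at 0.67 (adjusted p = 0.103). Scaling to total counts alone moved the median of all genes to -0.95, turned Slc15a1 to -0.17, Slc6a19 to -0.045, Slc7a9 to -0.21 and Slc7a7 to -0.70, and raised the called members to 2 with Slc3a2 at -1.20, so the higher levels of these apical carriers hold relative to the other genes only.

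Markers of other epithelial lineages moved with the same libraries. In libraries 58 to 61 against the later ones, 5 goblet markers summed to 2997 to 5341 against 14454 to 36010 CPM, 5 enteroendocrine markers to 141.7 to 231.0 against 988.7 to 1920 CPM, and 4 tuft markers to 8.09 to 34.5 against 124.6 to 601.8 CPM. All 14 of these genes were called lower, beside 8.39% of all genes. Of the crypt markers 1 of 4 tested was called lower, and of the Paneth markers 1 of 5. All estimates of these 2 lists were below 0. The 7 enterocyte markers summed to 16691 to 38951 against 11723 to 19832 CPM, with the highest value from pMCAO replicate 1 and the other 3 of these libraries between 16691 and 18996 CPM. Of the 7, 3 were called higher (Alpi, Apoa1 and Krt20), beside 3.28% of all genes, whereas Sis, the brush border sucrase-isomaltase, was at -0.84 (adjusted p = 0.0121, limma-voom) and Fabp2 at -0.093. Of the 6 epithelial markers 1 was called higher (Epcam) and 2 lower (Krt18 and Krt19), beside 3.28% and 8.39% of all genes. Of 4 proximal markers 1 was called lower (Fabp1), and of 4 ileal markers 0 were called. Of 6 immune markers 1 was called lower (Ptprc). The part of the lineage and region markers in the carrier differences was not tested.

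**Figure D3:**
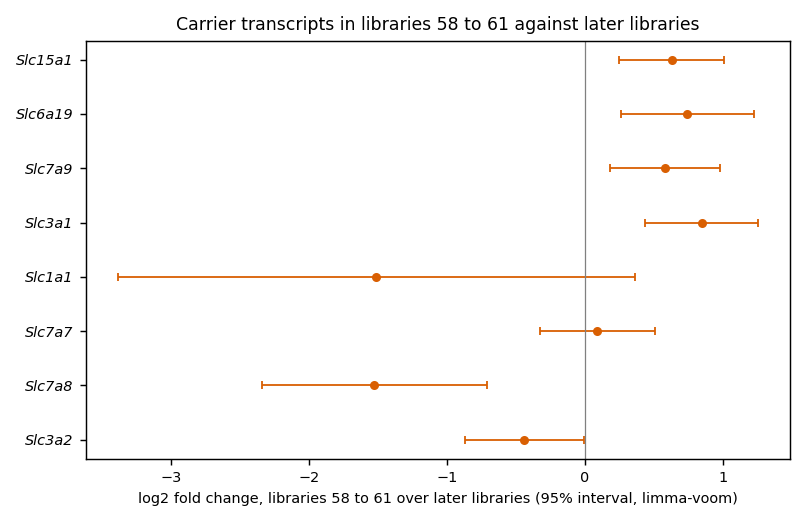
Log2 fold change of libraries 58 to 61 over the 8 later libraries for the 8 carriers (x axis), with the group as a covariate and 95% intervals from limma-voom. Slc15a1, Slc6a19, Slc7a9 and Slc3a1 lie between 0.58 and 0.85, and Slc7a8 lies at -1.53.

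Whether chains that work together varied together was examined in 3 pairs, within the 8 later samples because libraries 58 to 61 formed a separate cluster. Slc3a2 and its partner Slc7a8 varied together across these samples, with Pearson's r = 0.92 (exact permutation test, two-sided, p = 0.00221, adjusted over 4 pairs, 1 of them not reported here, 0.00883) and Spearman's rho = 0.95 (exact permutation p = 0.00114, adjusted 0.00456). Without the 2 samples farthest from the median of Slc3a2, r was 0.91 (exact permutation p = 0.0153, adjusted 0.0611, n = 6). This permutation exchanged samples between library blocks, and both genes were higher in each of libraries 66 to 68 than in the other 5. An alternative chosen after seeing the data removed block means and exchanged samples only within libraries 62 to 65 and within libraries 66 to 68 (n = 7). There r was 0.81 (exact permutation test, two-sided, p = 0.0486, adjusted 0.194). Spearman's rho, on ranks within blocks, was 0.86 (exact permutation p = 0.0833, adjusted 0.333). The relation therefore did not pass the adjusted threshold within blocks. Slc3a2 and Slc7a7, its dibasic partner, gave r = 0.14 (exact permutation p = 0.757, adjusted 0.757, n = 8) and rho = 0.21 (exact permutation p = 0.619, adjusted 0.619), and r was -0.19 within blocks. Whether the correlations of the 2 partners differ was not tested.

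The chains of the apical exchanger gave a weaker result. For Slc3a1 and Slc7a9 r was 0.61 (exact permutation p = 0.1005, adjusted 0.134, n = 8), rho was 0.50 (exact permutation p = 0.216, adjusted 0.288), and r fell to 0.084 without the 2 farthest samples (exact permutation p = 0.876) and was 0.29 within blocks (exact permutation p = 0.653, adjusted 0.806, n = 7).

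**Figure D4:**
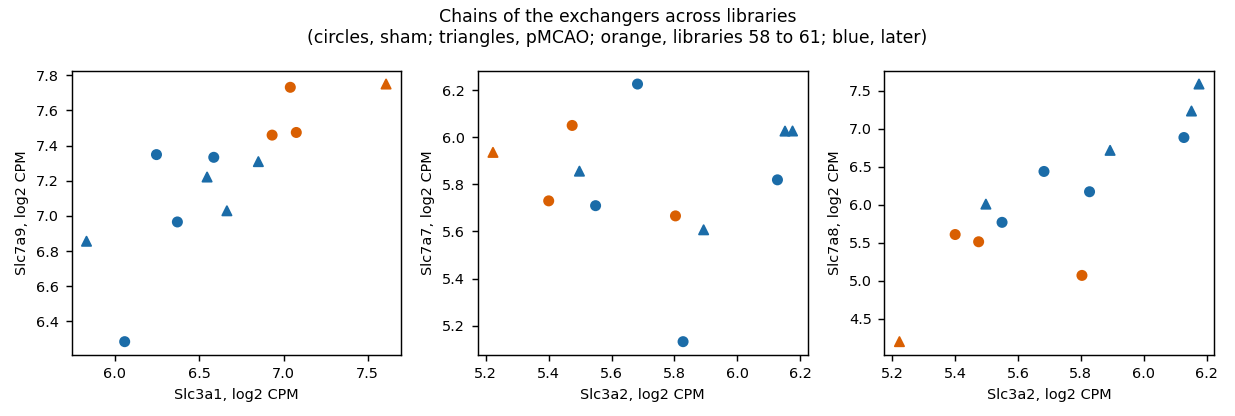
Log2 CPM of the 3 pairs of chains, with each point a sample, circles for sham, triangles for pMCAO, orange for libraries 58 to 61 and blue for the 8 later ones. The blue points of Slc3a2 and Slc7a8 follow a rising line (r = 0.92), and those of Slc3a2 and Slc7a7 do not (r = 0.14).

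The ratio of the 2 light chains that share Slc3a2 was described by block and by group, without a test. The log2 ratio of Slc7a8 to Slc7a7 was -0.75 ± 0.69 (SD, n = 4) in libraries 58 to 61 and 0.80 ± 0.57 (SD, n = 8) in the later ones, with no overlap. In the later samples it was 0.60 ± 0.53 in 4 sham and 1.01 ± 0.60 in 4 pMCAO samples, and these ranges overlapped.

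The other carriers of amino acids and peptides in the list were mostly estimated above 0 after stroke, with none called. Of 35 listed genes 26 were tested, 20 had positive and 6 negative estimates, the median log2 fold change was 0.37, and 4 of 26 passed an unadjusted p under 0.05, beside 8.43% of all genes. With the block in the fit none were called, 19 of 26 estimates were positive, and 3 passed that p as higher and 1 as lower, beside 12.7% of all genes in either direction. Slc16a10, a facilitative carrier of aromatic amino acids, was at 45.2 to 112.6 CPM in sham (median 70.3) and 95.6 to 239.3 CPM in pMCAO (median 118.5), with a log2 fold change of 0.91 ± 0.27 (adjusted p = 0.348, limma-voom). Slc43a2, a basolateral exit route for large neutral amino acids, was at 96.4 to 256.5 CPM in sham (median 125.4) and 159.4 to 390.7 CPM in pMCAO (median 279.2), with 0.88 ± 0.26 (adjusted p = 0.350). Slc6a20a, an imino acid carrier, was at 55.0 to 79.1 CPM in sham (median 62.9) and 61.99 to 203.7 CPM in pMCAO (median 111.1), with 0.82 ± 0.26 (adjusted p = 0.388). Its reads may be shared with its close paralog Slc6a20b and with antisense exons of Ccr9, and Slc43a2 overlaps the antisense Gm45606. For Slc16a10, Slc43a2 and Slc6a20a pMCAO was higher within each of blocks 1, 2 and 3, as was the case for 16.9% of all genes. These 3 genes were picked by their small p in the same samples, so their agreement across blocks is no separate support. With the block their log2 fold changes were 0.62 ± 0.17, 0.64 ± 0.18 and 0.72 ± 0.19, with adjusted p of 0.141, 0.145 and 0.119 (limma-voom). Slc36a4, a low-expressed carrier of neutral amino acids, was at 2.7 to 11.98 CPM in sham and 0.9 to 7.6 CPM in pMCAO, with -1.21 ± 0.51 (adjusted p = 0.550) and -1.21 ± 0.44 with the block (adjusted p = 0.263).

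**Figure D5:**
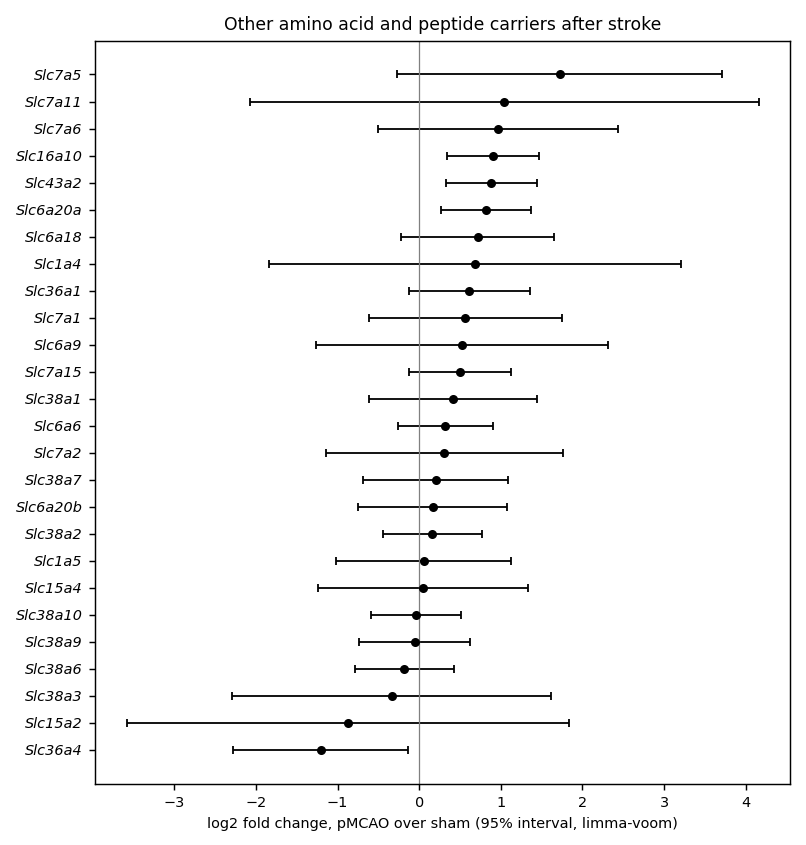
Log2 fold change of pMCAO over sham for the 26 tested carriers outside the 8 members (x axis), ordered by estimate, with 95% intervals from limma-voom. The estimates run from -1.21 for Slc36a4 to 1.72 for Slc7a5, a carrier with a median of 0.2 CPM in sham and 1.3 CPM in pMCAO, and 0 of 26 were called.

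The genes that anchor or drive these carriers gave 0 called among the 5 reported here, beside the background of 0%, with a median log2 fold change of 0.14. Of these 5, 1 passed an unadjusted p under 0.05, beside 8.43% of all genes, and 0 with the block in the fit, beside 12.7%. The 1 that passed was Atp1b1, a subunit of the sodium pump. It was at 206.4 to 549.6 CPM in sham and 312.8 to 675.0 CPM in pMCAO (log2 fold change 0.59 ± 0.28, adjusted p = 0.592, limma-voom), and with the block it was 0.26 ± 0.12 (adjusted p = 0.394). Its exons overlap the antisense Nme7. The apical sodium-proton exchanger Slc9a3 was at 13.9 to 109.8 CPM in sham and 12.3 to 40.3 CPM in pMCAO (-0.48 ± 0.40, adjusted p = 0.742). The sham value of 109.8 was replicate 3 alone, since the next highest was 38.8 CPM, and the estimate was -0.30 without it, -0.28 without pMCAO replicate 2 and -0.59 ± 0.38 with the block (adjusted p = 0.549). Pdzk1, a scaffold of brush border carriers, was at 13.1 to 29.3 and 21.2 to 27.5 CPM (0.14 ± 0.21, adjusted p = 0.870, and 0.15 ± 0.19 with the block, adjusted p = 0.795). Tmem27, a membrane protein that carries Slc6 family members to the surface in kidney, was at 0.0 to 3.4 and 0.2 to 2.8 CPM (0.96 ± 0.81, adjusted p = 0.749). It stood at 0.42 without pMCAO replicate 3 and at 0.92 ± 0.62 with the block (adjusted p = 0.581).

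The transcripts that cells raise when amino acids run short gave 0 called genes of 12 tested after stroke, with a median log2 fold change of 0.24, 7 positive and 5 negative estimates, and 1 higher and 1 lower at an unadjusted p under 0.05, beside 8.43% of all genes. With the block in the fit 0 were called, 10 of 12 estimates were positive with a median of 0.13, and 3 were higher and 0 lower at that p, beside 12.7% of all genes in either direction and 6.58% as higher. Asns, asparagine synthetase, was at 0.2 to 20.03 CPM in sham and 2.0 to 20.6 CPM in pMCAO (1.06 ± 0.72, adjusted p = 0.687, limma-voom). Nupr1, a stress-induced nuclear protein, was at 0.0 to 25.6 and 1.7 to 15.7 CPM (1.37 ± 0.76, adjusted p = 0.635). Shmt2, a mitochondrial serine-glycine enzyme, was at 0.0 to 1.9 and 0.2 to 2.8 CPM (2.08 ± 0.80, adjusted p = 0.510), and Ddit3, a stress-response transcription factor, at 14.8 to 30.5 and 7.7 to 24.7 CPM (-0.62 ± 0.29, adjusted p = 0.592). The 3 that passed as higher with the block were Asns (0.79 ± 0.25, adjusted p = 0.196), Nupr1 (1.23 ± 0.42, adjusted p = 0.218) and Shmt2 (1.51 ± 0.56, adjusted p = 0.269, limma-voom). Each was higher in pMCAO within blocks 1, 2 and 3, as were 16.9% of all genes. These 3 were picked by a fit to the same differences, so their agreement across blocks is no separate support. With the block Ddit3 was at -0.43 ± 0.29 (adjusted p = 0.584, limma-voom). Exons of Shmt2 overlap Ndufa4l2 and those of Ddit3 overlap Mars on the opposite strand.

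Between library blocks both lists held called genes. In libraries 58 to 61, 4 of 26 other carriers were called lower, beside 8.39% of all genes, and none higher. These were Slc7a1, a carrier of dibasic amino acids (log2 fold change -2.49, adjusted p = 0.0029), the glutamine carriers Slc1a5 (-2.24, adjusted p = 0.0135) and Slc38a1 (-1.90, adjusted p = 0.0159), and the glycine carrier Slc6a9 (-3.04, adjusted p = 0.0468, limma-voom). Slc6a9 was at 0.0 CPM in at least 1 of these libraries, so its fold depends on the small offset that limma-voom adds to counts. Of the shortage transcripts 3 of 12 were called lower, namely Asns (-3.32), Psat1 (-3.75) and Eif2ak4 (-1.74), beside 8.39% of all genes, and 1 higher, Sesn2 (1.47), beside 3.28%. Psat1 had 0 counts in 2 of libraries 58 to 61 and 1 count in the other 2, so its fold depends on that offset too.

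For the 2 most abundant members, the genes with the most similar profile were sought by the root mean square difference of centred log2 CPM over 12 samples. For Slc15a1 these were Eif2ak2 (0.195), Dlg3 (0.207) and Pcid2 (0.210), beside a median of 0.851 over all tested genes. A gene that did not vary between samples would score 0.411. For Slc6a19 the nearest were Atl2 (0.235), Fbxl5 (0.280) and Slc52a2 (0.292), beside a median of 0.935 and a score of 0.584 for a gene that did not vary.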

How the data were processed

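RNA of FACS-sorted EpCAM+ cells was sequenced in 12 samples, after ribosomal RNA cleavage and Trio library preparation, with paired-end reads. The authors aligned reads to GRCm38 with STAR and counted them with featureCounts, and the settings for strand were not given. The deposited counts were whole numbers per gene, not normalised. The deposited CPM values were those counts scaled to each sample's table total, and were not used in tests. The deposited log2 columns (fold change and average expression) and p-value columns (p-value and FDR) hold the authors' own comparison, which corrected for collection day, and were not used. 0 sample columns were unmatched.

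Genes were kept with filterByExpr (minimum count 10), leaving 14462 and removing 1393, scaled by TMM and fitted with limma-voom on the group (limma 3.58.1, edgeR 4.0.16, DESeq2 1.42.0, R 4.3.3), with Benjamini-Hochberg adjustment over all tested genes. Genes were called where the adjusted p did not exceed 0.05 and the log2 fold change reached 1 in either direction. The log2 CPM used a prior count of 2, and intervals were 95%. Collection day was not in the labels, so runs of library numbers in the titles served as blocks. The block comparison took the group as a covariate. A floor of 3 counts corresponded to 0.0692 to 0.724 CPM, covering counting error only. Levels per kb used merged GENCODE exons.

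The members, gene lists and blocks were chosen with earlier results of these data known. Named genes were the 8 members and the 3 nearest profiles of Slc15a1 and Slc6a19. Of the other carriers, the partners and the shortage response, the 4 with the smallest p in each list and any called after stroke or between blocks were named. Marker genes were counted by list, and only some of them are named. Genes named beyond this rule (Slc7a5, Slc6a20b, Sis, Fabp2 and antisense neighbours) were chosen after their values were seen. Scripts were tested on simulated data. No 2 samples agreed within sampling noise (lowest chi-square per degree of freedom 17.7). Alternatives covered other tests, scalings, filters, blocks and left-out samples. Some genes, including 2 partners of the carriers and 1 pair, are not reported here. Protein sequences were not used here.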

Additional observations from a re-analysis of the deposited data

How the results depend on the processing

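For the 8 members after stroke the count called was 0 under each alternative, and leaving out 1 sample at a time gave 0 to 0 for the members, the other carriers, the 5 reported partners and the shortage response. Over all genes, leaving out 1 sample gave 5 called without sham replicate 7, 8 without pMCAO replicate 1 and 17 without pMCAO replicate 3. Every other such fit called 0. With so few genes called in all, 0 in these short lists shows little about stability. In the block comparison the members gave 2 with total counts only, and leaving out 1 sample gave 0 to 1, with 0 without pMCAO replicate 1. The cause was not tested.

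The replicate numbers did not pair the samples, since 2 of 5 same-numbered pairs correlated above 0.1 and 1 of 5 sham samples correlated best with its own number. With the replicate block, 0 members, 2 other carriers (Slc16a10 at 1.06 and Slc43a2 at 1.08), 0 partners and 0 shortage genes were called, and 243 genes in all against 0 without it.

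Signs near 0 turned. After stroke these were Slc15a1 (0.062 with total counts only), Slc7a9 (-0.021 with edgeR, -0.041 with DESeq2, -0.063 with quality weights, -0.057 with the library block, -0.050 with that block in edgeR, -0.15 with the replicate block, -0.14 to 0.12 leaving out 1 sample), Slc3a1 (-0.0082 with quality weights, -0.11 to 0.33 leaving out 1 sample), Slc7a7 and Slc7a8 (-0.013 and -0.048 with the library block in edgeR), Slc3a2 (-0.015 with the library block, -0.052 with it in edgeR, -0.0072 to 0.23 leaving out 1 sample) and Pdzk1 (-0.023 to 0.26 leaving out 1 sample). Between blocks, total counts only gave -0.17 for Slc15a1, -0.045 for Slc6a19, -0.21 for Slc7a9 and -0.70 for Slc7a7, quality weights -0.028 for Slc7a7, and leaving out 1 sample -0.021 to 0.14.

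For the pairs, all 12 samples gave r = 0.81 for Slc3a1 and Slc7a9 and -0.030 for Slc3a2 and Slc7a7. Without the 2 farthest samples r was 0.91 for Slc3a2 and Slc7a8, not past an adjusted p of 0.05. Within libraries 62 to 65 and 66 to 68, an alternative chosen after seeing the data, it was 0.81 (adjusted p = 0.194, exact permutation test) for that pair and -0.19 for Slc3a2 and Slc7a7. Relative log expression factors moved no level per kb by more than 1 SD. A ratio of genes within a sample cannot change with such factors. Over all genes the count called after stroke was 0 with limma-voom, 68 with DESeq2, 47 with the library block and 18 with quality weights.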
